A study of Mus musculus with 21 samples.

Results

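The step from the early innate lymphoid progenitor (EILP) to the innate lymphoid cell precursor (ILCP) was described here by how open chromatin changed in strength. The regions were DNase I hypersensitive sites (DHS), stretches of DNA that the nuclease DNase I cuts readily because few nucleosomes cover them. The EILP and ILCP peak lists (build mm9, chromosomes 1 to 19 and X) were merged wherever peaks shared at least 1 bp, which gave 91263 regions of the 102313 found when the list of the preceding stage was merged in as well. Of these, 49404 (54.1%) held a peak of both lists and are called shared DHS. A further 19893 held only an EILP peak and 21966 only an ILCP peak. The height of a region was the highest deposited pileup, the number of extended tags at a summit. Each stage's pileup was divided by the number of tags behind its list, and the ILCP value over the EILP value is the ratio used throughout.

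The series has 21 mouse bone marrow samples on the C57BL/6 background. DNase-seq was made at 3 stages, with 3 libraries per stage, each from 300 sorted cells treated with 0.3 units of DNase I for 5 minutes. The all-lymphoid progenitor (ALP) was sorted as lineage-negative, Kit+ 2B4+ a4b7- cells with high Flt3 and IL-7Ra. EILP were lineage-negative Kit+ 2B4+ a4b7+ Tcf7+ cells without Thy1, and ILCP shared those markers but carried Thy1 and IL-7Ra. The EILP mice were Tcf7EGFPnull/+, and the ALP and ILCP mice were Tcf7EGFP/+, both heterozygous for a reporter allele of Tcf7, so stage and genotype cannot be told apart between EILP and ILCP. ALP and ILCP have the same genotype in the labels. TCF1, the protein that Tcf7 encodes, was mapped in EILP by CUT&RUN, a method that tethers a nuclease to the bound protein through an antibody. There were 6 such libraries and 4 with IgG, some of them technical repeats. Another 2 libraries carry conflicting labels and were put in no group, but their library number is among those pooled into the control of the TCF1 peak calls.

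The 3 libraries of a stage were pooled before peaks were called, so each stage gives 1 value per region. No spread between mice or libraries could be had, no p-value is given, and each interval below covers counting error only. The lists rest on 11236009 EILP tags, 12681410 ILCP tags and 12420429 ALP tags after filtering, and the TCF1 list on 2418839. In a sorted population, fewer cells with an open site and less cutting per cell cannot be told apart.

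Innate lymphoid cells are lymphocytes without rearranged antigen receptors that act early in tissue defence. EILP and ILCP are successive bone marrow stages on the way to them. TCF1 acts at the start of this path. ILCP are known for the transcription factor PLZF, encoded by Zbtb16, together with GATA3, ID2 and TOX, while factors of multipotent and lymphoid-primed progenitors are shut down along the way.

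Most shared DHS had nearly the same height at both stages. The median log2 ratio was -0.06, a ratio of 0.960, with an SD over regions of 0.55. From the 5th to the 95th percentile the log2 ratio ran from -1.02 to 0.83, and its extremes were -3.10 and 2.20. By height ratio, 1180 shared DHS (2.39%) were at least 2-fold higher in ILCP and 2579 (5.22%) at least 2-fold higher in EILP. ILCP-high regions thus made up 31.4% of the 2-fold calls. That split moved with the scaling: it was 40.5% with ratios centred on the median (1518 against 2232 regions) and 46.9% with the authors' fold enrichment over the local background in place of pileup (760 against 861). With the fold enrichment the median log2 ratio was 0.03, so the sign of the small overall shift is set by the scaling.

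Counting error was wide beside most of these ratios. For 1 region the 95% interval of the ratio is exact (Clopper-Pearson, from the split of the region's tags between the lists). The interval lay above 1 for 680 shared DHS (1.38%) and below 1 for 1824 (3.69%), together 5.07%. An exact interval is conservative at low tag numbers, and a shared DHS had to pass the peak cutoff in both lists. The share to be expected with no change was therefore not known. Among the 23308 shared DHS with a pileup of at least 20 in either list, called strong here, 9.32% had an interval off 1, with 645 above and 1527 below. Of the 2-fold calls, 603 of 1180 in the ILCP direction and 1580 of 2579 in the EILP direction had an interval off 1. A single named region should be read with that in mind.

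**Figure D1:**
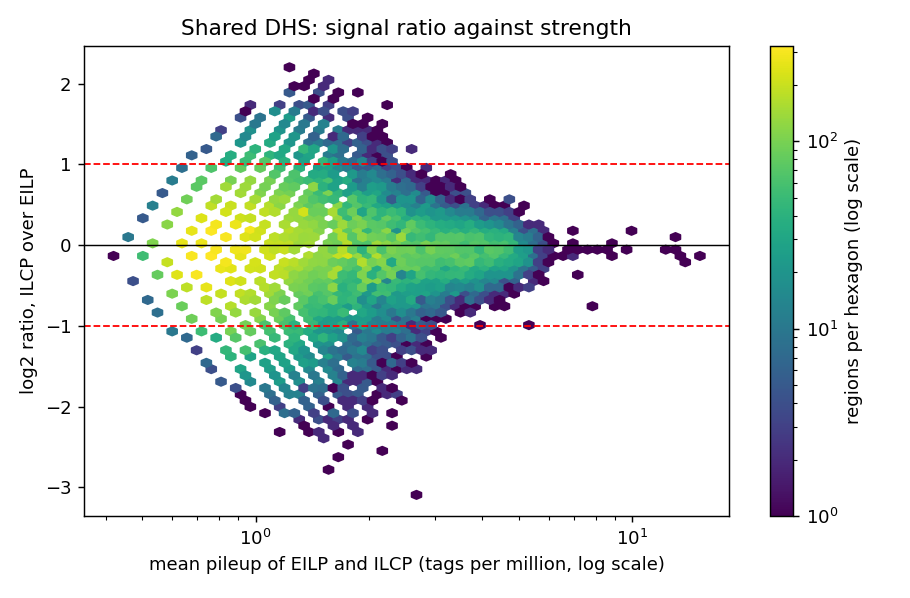
The log2 ratio of ILCP over EILP (vertical axis) is plotted against the depth-scaled mean pileup of both stages (horizontal axis, log scale) for the 49404 shared DHS, with colour for the number of regions per hexagon; dashed lines mark 2-fold. The spread narrows from the middle of the range to the strongest regions, where 0.162% of regions in the top quintile are 2-fold higher in ILCP and 1.44% in EILP.

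The ratio spread least at the strongest sites, where counting error is also smallest. How much of the spread at each height is counting error was not tested. Shared DHS were divided into 5 near-equal groups by mean height. In the strongest group the SD of the log2 ratio was 0.34, and 16 of 9848 regions (0.162%) were at least 2-fold higher in ILCP against 142 (1.44%) in EILP. In the middle group the SD was 0.64, with 420 of 9866 (4.26%) higher in ILCP and 791 (8.02%) higher in EILP. In the weakest group the SD was 0.51, with 117 of 10037 (1.17%) higher in ILCP and 414 (4.12%) higher in EILP. The medians of the 5 groups lay between -0.07 and 0.00 on the log2 scale. Chromosome medians also differed little, from -0.08 on chromosome 19 to -0.04 on chromosomes 9 and 14, with -0.07 on X.

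Sites higher in ILCP were less often present in the ALP list, a stage that played no part in forming the ratio. Of the regions at least 2-fold higher in EILP, 91.7% (95% Wilson interval 90.6 to 92.7) held an ALP peak. The share was 82.6% among regions whose log2 ratio lay within 0.5 of 0, and 44.1% (41.3 to 46.9) among regions at least 2-fold higher in ILCP. Median heights in tags do not bear on that share, because the ALP median covers only regions with an ALP peak. The EILP-high class had a median pileup of 20 in EILP, 9 in ILCP and, where an ALP peak was present, 19 in ALP. The ILCP-high class had medians of 8 in EILP, 22 in ILCP and 13 in ALP where present.

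The shares kept this order when regions were grouped by mean height. At the third quintile of mean height, the share with an ALP peak went from 94.4% (92.6 to 95.8) in the EILP-high class through 91.5%, 85.7% and 73.1% in the classes between to 43.6% (38.9 to 48.4) in the ILCP-high class. In the weakest quintile the ends were 78.3% and 40.2%, and in the fourth 97.9% and 45.8%. The strongest quintile held too few ILCP-high regions for a share. In the 4 quintiles that had one, the ILCP-high share stayed between 40.2% and 45.8%, while that of the EILP-high class climbed with strength. At a fixed ILCP height of 15 to 20 tags the order was the same, from 98.0% through 85.7% within 0.5 log2 to 46.9%.

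At a fixed EILP height most of the order was gone. Among regions of 11 to 14 EILP tags an ALP peak was present at 77.4% (72.8 to 81.4) of the EILP-high class, 76.6% of regions within 0.5 log2 and 75.8% of those 0.5 to 1 log2 higher in ILCP. At 21 to 30 EILP tags these classes had 96.0%, 96.8% and 96.2%, and at 15 to 20 tags 90.9%, 89.9% and 82.1%. EILP-high sites were thus in the ALP list about as often as sites of equal EILP height whose signal hardly differed. Only the ILCP-high class stood lower in each EILP band where it had enough regions, with 50.3% (43.3 to 57.2) at 11 to 14 tags, and 36.2% against 44.5% within 0.5 log2 at 5 to 7 tags. At 15 to 20 tags that class had 23 regions, 65.2% (44.9 to 81.2) of them in the ALP list. What remains at a fixed EILP height is therefore the lower ALP share of sites higher in ILCP, mainly past 2-fold.

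**Figure D2:**
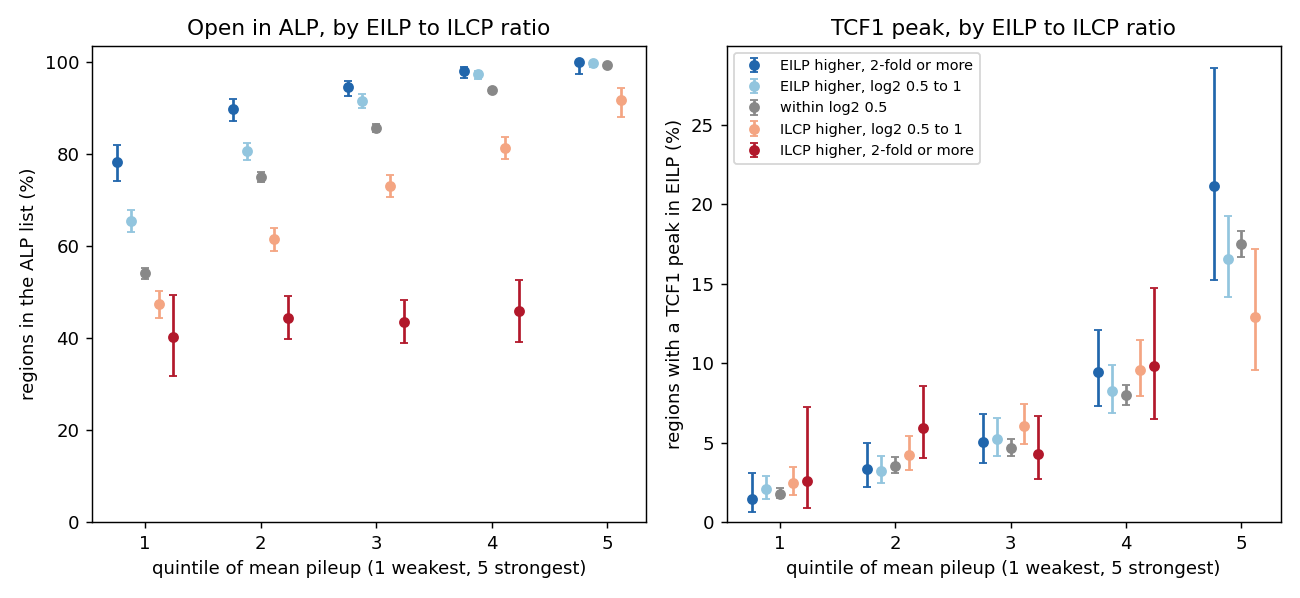
Shares of shared DHS with an ALP peak (left) and with a TCF1 peak in EILP (right), in percent, by quintile of mean pileup, with 1 point per class of EILP to ILCP ratio and bars for 95% Wilson intervals; classes under 20 regions are not drawn. On the left the classes are ordered from EILP-high to ILCP-high in every quintile (94.4% to 43.6% in the third); on the right they mostly overlap.

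TCF1 peaks showed no such order at matched strength. Over all shared DHS, 5.89% of the EILP-high class (5.05 to 6.87) and 5.93% of the ILCP-high class (4.72 to 7.43) overlapped a TCF1 peak, against 7.84% (7.56 to 8.13) of regions within 0.5 log2. Occupancy went mainly with strength. Among regions within 0.5 log2 it was 1.79% in the weakest quintile and 17.5% in the strongest. At the third quintile the EILP-high and ILCP-high classes had 5.06% (3.74 to 6.81) and 4.29% (2.73 to 6.67), and at the fourth 9.44% (7.31 to 12.1) and 9.85% (6.47 to 14.7). In the strongest quintile the EILP-high class reached 21.1% (15.2 to 28.6), and regions 0.5 to 1 log2 higher in ILCP had 12.9% (9.59 to 17.2).

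Holding the height of a single stage fixed gave opposite orders. Among regions of 11 to 14 tags in EILP, where TCF1 was measured, occupancy went up with the ratio, from 1.38% (0.590 to 3.18) in the EILP-high class through 3.68% within 0.5 log2 to 10.7% (7.08 to 15.7) in the ILCP-high class. Among regions of 15 to 20 tags in ILCP it went down, from 17.3% (12.7 to 23.1) in the EILP-high class to 4.99% (3.25 to 7.58) in the ILCP-high class. At a fixed EILP height a higher ratio means a higher ILCP height, and the reverse holds at a fixed ILCP height. The sign of any link between TCF1 in EILP and the later change therefore depends on which stage is held fixed.

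**Figure D3:**
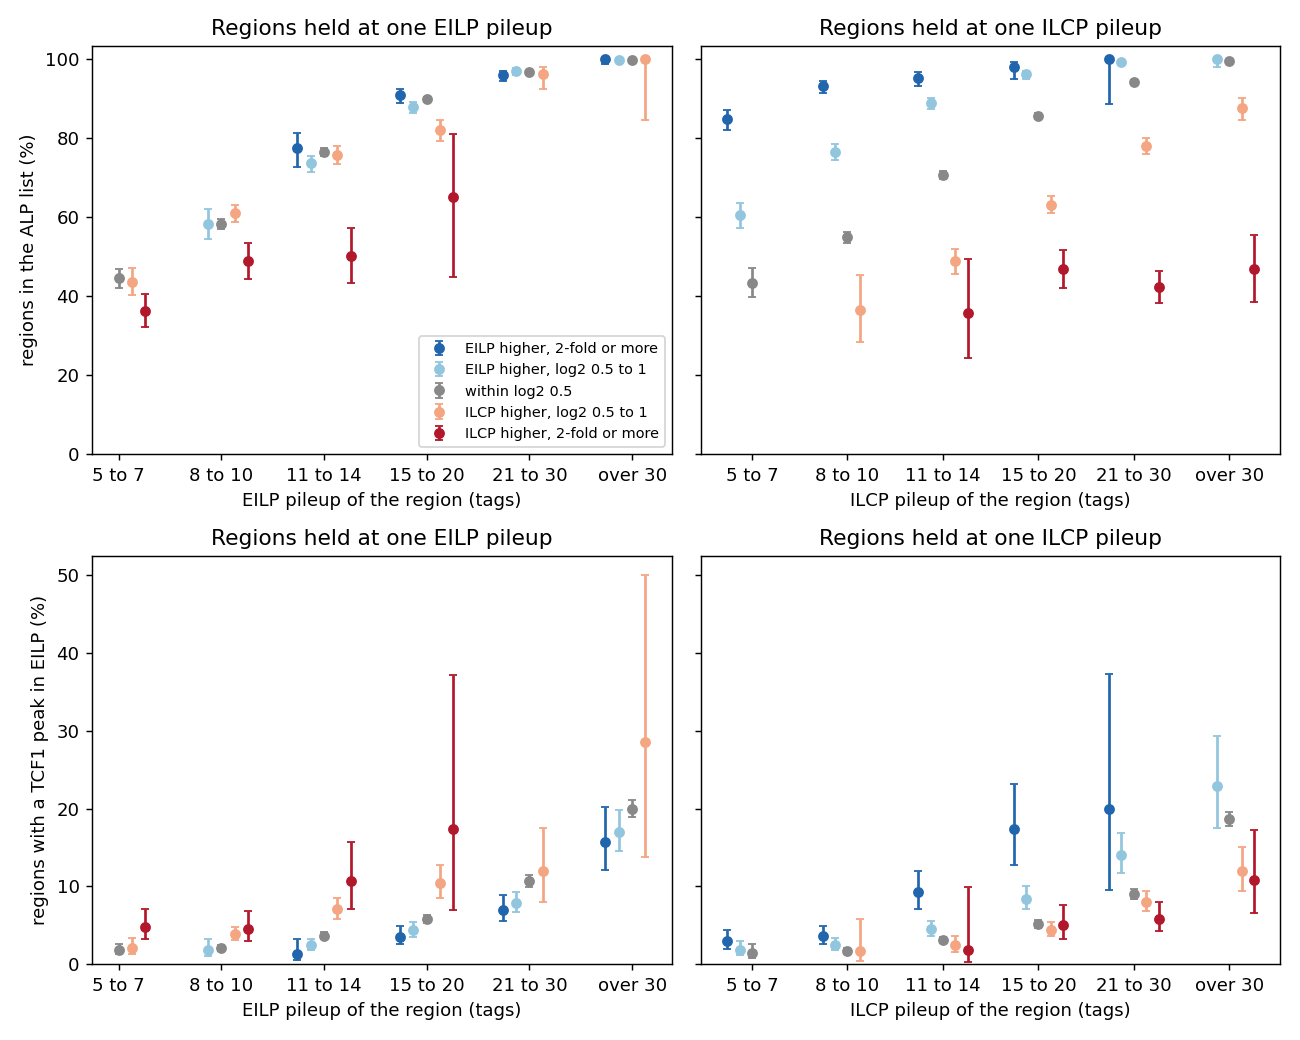
Share of shared DHS with an ALP peak (top) or with a TCF1 peak in EILP (bottom), in percent, for regions grouped by EILP pileup in tags (left) or by ILCP pileup in tags (right), with 1 point per class of ratio and bars for 95% Wilson intervals; groups under 20 regions are not drawn. At 11 to 14 EILP tags the ALP share is 77.4% in the EILP-high and 50.3% in the ILCP-high class and the TCF1 share 1.38% and 10.7%, while at 15 to 20 ILCP tags the TCF1 share is 17.3% and 4.99%.

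Sites past 2-fold had neighbours of the same class somewhat more often than shared DHS at large. Among the 622 ILCP-high regions with another shared DHS within 10 kb, the nearest was itself ILCP-high in 3.54% (2.35 to 5.30), against 2.00% over all shared DHS. For the EILP-high class the share was 7.93% (6.67 to 9.40), against 4.82% over all. The opposite class was near its share over all. The nearest was EILP-high for 5.14% (3.67 to 7.17) of the ILCP-high regions, and ILCP-high for 2.25% (1.61 to 3.12) of the EILP-high ones. Sites that are each other's nearest count from both sides, which these intervals ignore, and strength was not matched. Summits of the 2 lists lay a median of 32 bp apart in EILP-high, 30 bp in ILCP-high and 19 bp in regions within 0.5 log2. Over 1022 windows of 1 Mb with at least 20 shared DHS, the median log2 ratio ran from -0.38 to 0.24. The lowest lay at 66 to 67 Mb of chromosome 18, where 0 of 24 shared DHS were 2-fold higher in ILCP and 5 in EILP. Next came 63 to 64 Mb of chromosome 4 (median -0.36, 0 of 36 and 4 of 36) and 37 to 38 Mb of chromosome 13 (-0.36, 1 of 47 and 8 of 47). The highest lay at 140 to 141 Mb of chromosome 6, with 2 of 23 shared DHS higher in ILCP and 0 in EILP. After it came 115 to 116 Mb of chromosome 9 (median 0.20, 0 of 29 and 2 of 29) and 6 to 7 Mb of chromosome 4 (0.20, 1 of 25 and 1 of 25). How far counting error alone spreads such window medians was not tested.

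The regions with the most extreme ratios were picked on the ratio itself and are given as a description. Among strong regions, the 10 with the highest ratio had 5 to 7 tags in EILP and 26 to 32 in ILCP, ratios of 3.80 to 4.61. Of these, 2 held an ALP peak and 0 a TCF1 peak. The highest was chr11:120888689-120889017, with no ALP peak, 5 tags in EILP and 26 in ILCP, a ratio of 4.61 (interval 1.74 to 15.4). The 10 with the lowest ratio had 27 to 53 tags in EILP and 5 to 8 in ILCP, which is 5.00 to 8.55-fold higher in EILP, and 10 of 10 held an ALP peak of 23 to 42 tags. Such a count is near the background at that height, since 96.8% of shared DHS of 21 to 30 EILP tags within 0.5 log2 also held one. The lowest was chr9:21507292-21507554, which had 31 tags in ALP, 53 in EILP and 7 in ILCP, an EILP over ILCP ratio of 8.55 (3.87 to 22.3). It overlapped a TCF1 peak, as did 1 more of the 10, chr1:35870469-35870855, with 38, 28 and 6 tags in ALP, EILP and ILCP.

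Because no gene annotation of build mm9 was used, genes were placed by 55 wide windows drawn by hand from general knowledge of mm9 (200 to 2900 kb, median 400 kb) around loci of 7 role lists. In the GRCm38 gene table all 55 named genes lay on the window's chromosome, and 38 of 38 neighbouring pairs stood in the same order; the window bounds themselves were not checked against an annotation of mm9. A region in a window is near the gene by this placement only, is not assigned to it, and the windows hold other genes too. Within the windows, 51 of 1257 shared DHS (4.06%) were at least 2-fold higher in ILCP and 48 (3.82%) in EILP, beside 2.39% and 5.22% genome-wide.

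Around the transcription factors of the innate lymphoid path (12 windows, 284 shared DHS), 21 shared DHS (7.39%) were at least 2-fold higher in ILCP and 15 (5.28%) in EILP. The median log2 ratio was 0.03, beside -0.06 over all shared DHS. The counts were 7 and 6 with the authors' fold enrichment, beside 760 and 861 of 49404 genome-wide. ILCP-high sites made up 58.3% of the 2-fold calls by height, beside 31.4% genome-wide. By fold enrichment they made up 53.8%, beside 46.9% genome-wide. By interval, 15 of the 21 lay above 1 and 10 of the 15 below 1. An ALP peak was present at 4 of the 21 ILCP-high sites and at 15 of the 15 EILP-high sites, beside 44.1% and 91.7% of these classes genome-wide. Regions of 1 list made up 37.4% of the ILCP regions (170 of 454) and 27.0% of the EILP regions (105 of 389) in these windows, beside 30.8% and 28.7% genome-wide. By window the ILCP share ran from above to below the genome's: it was 61.9% around Bcl11b, 41.3% around Gata3, 40.7% around Rora, 34.0% around Id2, 26.4% around Runx3 and 22.6% around Zbtb16. In 11 of the 12 windows at least 1 shared DHS was ILCP-high, and in 8 of the 12 at least 1 was EILP-high. ILCP-high sites were the more numerous in 5 windows and EILP-high sites in 4, and the 2 counts were equal in 3. The window without an ILCP-high site was that of Runx3, which encodes a RUNX factor of cytotoxic and innate lymphocytes. There 3 of 39 sites were EILP-high and 0 ILCP-high.

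The Rora window had the most ILCP-high sites of this list. RORA is a nuclear receptor needed for group 2 innate lymphoid cells. Of 32 shared DHS, 5 were at least 2-fold higher in ILCP and 0 in EILP, and the median log2 ratio was 0.27. None of those 5 had an ALP peak. The highest was chr9:69074702-69074939, with no ALP peak, 7 tags in EILP and 23 in ILCP (ratio 2.91, 1.21 to 8.03). The region next to it, chr9:69075002-69075431, had 8 and 26 tags (2.88, 1.27 to 7.36) and overlapped a TCF1 peak. The window also held 22 regions in ILCP only (of 54) and 9 in EILP only (of 41), and the strongest of the former was chr9:68809312-68809554 at 21 tags.

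Zbtb16 encodes PLZF, the factor that marks ILCP. Its window had 4 ILCP-high and 1 EILP-high site of 24, while its median log2 ratio was -0.24 (-0.08 by fold enrichment). The ratio was above 1 at 10 of the 24, and the counting interval held 1 at 21 of the 24. The highest ratio was at chr9:48603131-48603642, with no ALP peak, 8 tags in EILP and 23 in ILCP (2.55, 1.10 to 6.59). The tallest of the 4 in ILCP, chr9:48346399-48347053, had no ALP peak, 15 tags in EILP and 38 in ILCP (2.24, 1.21 to 4.39). At chr9:48366761-48367092 the order was reversed, with 11 tags in ILCP against 22 in EILP and 27 in ALP.

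The windows of Gata3, Id2, Tox and Tcf7 each held sites past 2-fold both ways by the ratio. The counting interval held 1 at 24 of 27 shared DHS around Gata3 and 31 of 35 around Id2. It held 1 at 14 of 15 around Tox and 22 of 23 around Tcf7, the EILP-high site of each among them. GATA3 is needed for all helper-like innate lymphoid cells. In its window chr2:9868405-9868738 had 9 tags in ALP, 12 in EILP and 32 in ILCP (2.36, 1.18 to 5.04), and 19 of 46 ILCP regions and 5 of 32 EILP regions were in 1 list only. The lowest ratio there was at chr2:10088412-10088841, with 12, 17 and 7 tags in the 3 stages. Around Id2, which encodes an inhibitor of E proteins, chr12:25952586-25953143 had no ALP peak, 12 tags in EILP and 31 in ILCP (2.29, 1.14 to 4.89), and chr12:25443264-25443536 had 23, 18 and 8 tags. In the window of Tox, an HMG-box factor of early lymphoid development, chr4:6609179-6609493 had 10, 14 and 32 tags (2.03, 1.05 to 4.11). Around Tcf7 itself, chr11:52033888-52034108 had 20, 14 and 32 tags in ALP, EILP and ILCP, the same EILP to ILCP ratio. At that site ALP was above EILP, and both ALP and ILCP mice differ from EILP mice in the Tcf7 allele.

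The other factors of the list split by window. Around Ets1 and Fli1, which encode ETS factors of lymphoid and blood cells, 3 of 25 sites were ILCP-high and 0 EILP-high, led by chr9:32690678-32691042 with no ALP peak, 7 tags in EILP and 25 in ILCP (3.16, 1.33 to 8.66). The Maf window, around a bZIP factor of cytokine-producing lymphocytes, had the list's highest and lowest ratios. Its highest was chr8:118428069-118428395 with no ALP peak, 6 tags in EILP and 25 in ILCP (ratio 3.69, with a lower bound of 1.48), and its lowest chr8:118079341-118079760 with 22, 19 and 6 tags (EILP over ILCP 3.57, 1.37 to 10.9). Around Bcl11b, a factor of T cells and group 2 innate lymphoid cells, chr12:108398260-108398728 had no ALP peak, 13 tags in EILP and 30 in ILCP, and 13 of 21 ILCP regions and 2 of 10 EILP regions were in 1 list only. Strong one-list regions numbered 8 of 83 in EILP (9.64%, beside 3.89% genome-wide) and 4 of 116 in ILCP (3.45%, beside 2.72%).

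**Figure D4:**
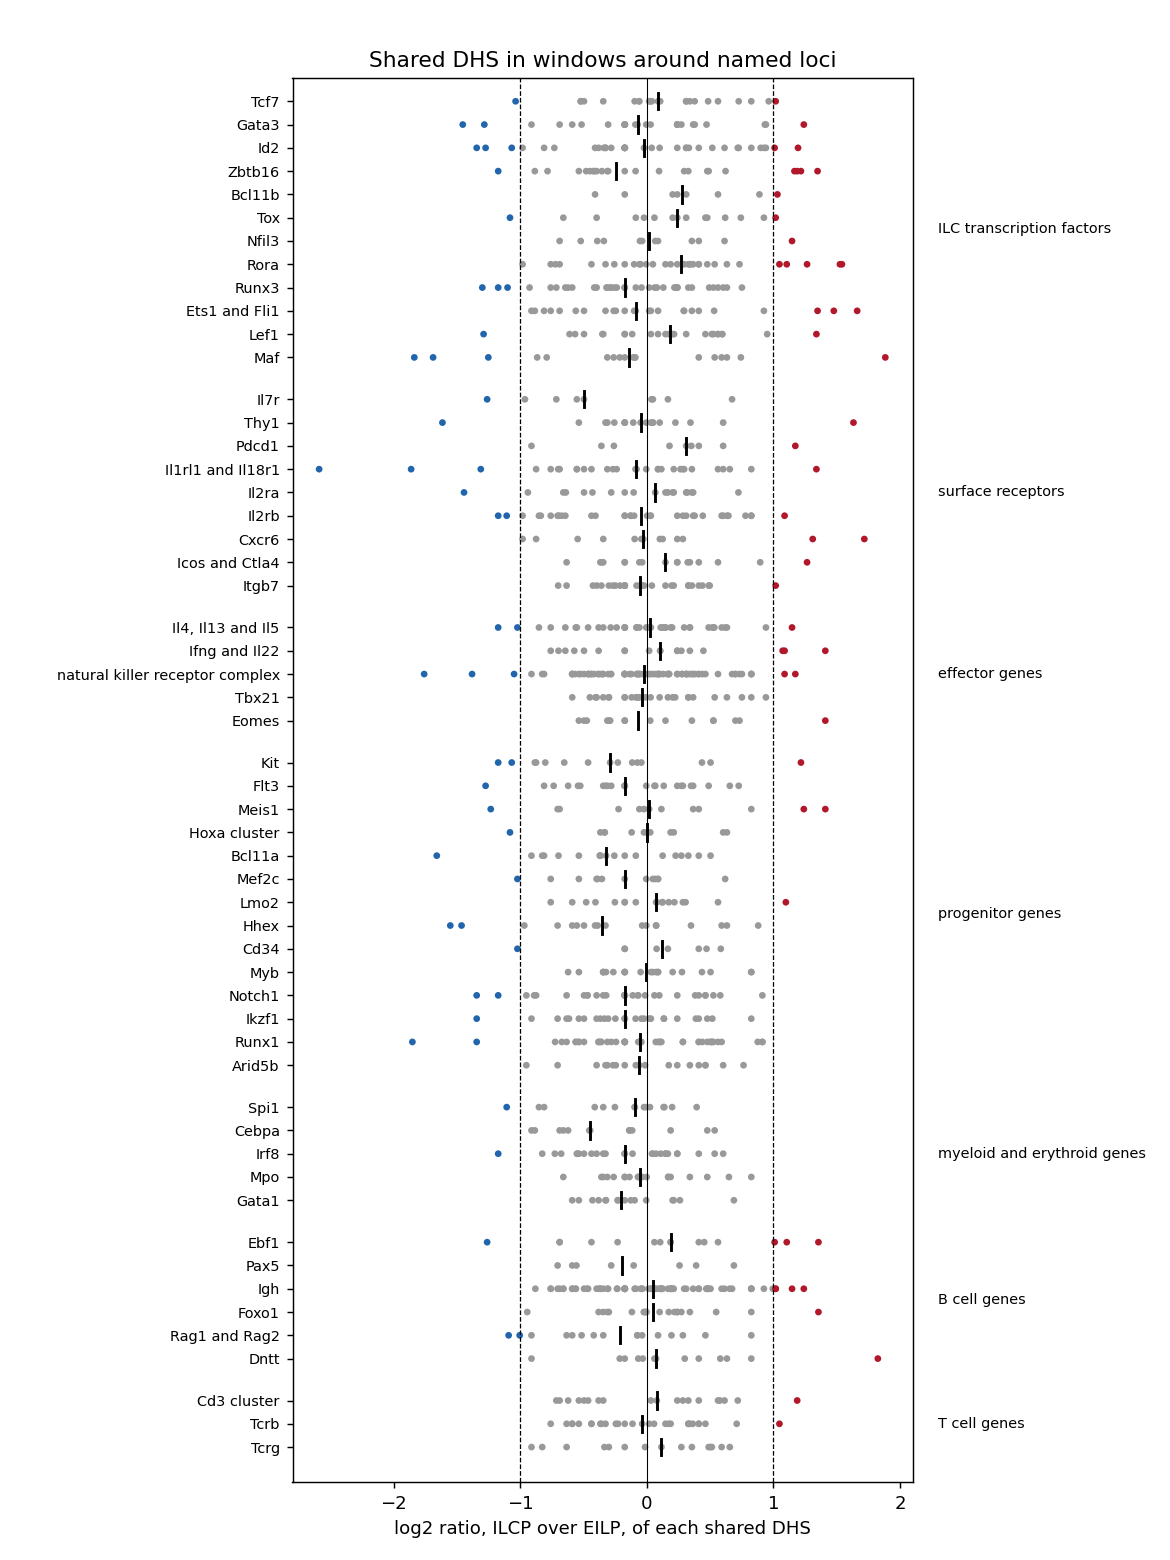
Each point is 1 shared DHS in a window around a named locus, at its log2 ratio of ILCP over EILP (horizontal axis), with windows grouped by role list; red and blue points lie past 2-fold (dashed lines), and short black bars are window medians; 1 effector window is not drawn. Among the transcription factors of the innate lymphoid path 21 points are red and 15 blue, and among the progenitor genes 4 are red and 15 blue.

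Surface receptor windows had 8 ILCP-high sites of 180 (4.44%, beside 2.39% genome-wide) and 8 EILP-high (4.44%, beside 5.22%). Of the markers used to sort the cells they include Thy1, Il7r and Itgb7, a chain of a4b7. The windows of Kit, Flt3 and Tcf7 stand in other lists. Thy1 separates the 2 sorted populations. In its window chr9:43938230-43938492 had 21 tags in ALP, 8 in EILP and 28 in ILCP (3.10, 1.38 to 7.87), and chr9:43988818-43989070 was found in ILCP only, at 23 tags. Another site, chr9:43783499-43783850, went the other way with 14, 19 and 7 tags. Around Pdcd1, which encodes PD-1, a receptor that ILCP carry, 1 of 9 sites was ILCP-high, chr1:95937052-95937360 with no ALP peak, 11 tags in EILP and 28 in ILCP (2.26, 1.09 to 5.02). The 9 shared DHS around Il7r, the receptor chain by which ILCP and ALP were sorted, had a median log2 ratio of -0.50 (-0.36 by fold enrichment), but 4 of the 9 had a ratio above 1 and the counting interval of each of the 9 held 1. The lowest ratio was at chr15:9393202-9393858, with 30, 17 and 8 tags in ALP, EILP and ILCP (0.417, 0.156 to 1.02). No difference at this marker was detectable for a single site at this depth.

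The window of Il1rl1 and Il18r1, receptors for IL-33 and IL-18, held the widest spread of all 55. Its lowest site, chr1:40412722-40413131, had 30 tags in ALP, 32 in EILP and 6 in ILCP, 6.02-fold higher in EILP (2.48 to 17.6), and was among the 3 lowest ratios of strong regions in the genome. Its highest, chr1:40454310-40454676, had no ALP peak, 7 tags in EILP and 20 in ILCP (2.53, 1.03 to 7.09) and overlapped a TCF1 peak. Around Cxcr6, a chemokine receptor of committed innate lymphoid precursors, 2 of 13 sites were ILCP-high and 0 EILP-high. The higher, chr9:123781253-123781623, had 9, 7 and 26 tags (3.29, 1.39 to 8.98), and chr9:123760295-123760725 between them was ILCP-only at 27 tags with 10 in ALP.

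Effector windows (6 windows, 193 shared DHS) had 7 ILCP-high sites (3.63%, beside 2.39% genome-wide) and 5 EILP-high (2.59%, beside 5.22%). Of the strong regions, 4 of 94 were in ILCP only (4.26%, beside 2.72%) and 0 of 67 in EILP only (beside 3.89%). The EILP-high sites lay in the larger windows. The natural killer receptor complex had 2 ILCP-high and 3 EILP-high sites of 81. The window of the cytokine genes Il4, Il13 and Il5 had 1 and 2 of 40. The window of the cytokine genes Ifng and Il22 had 3 ILCP-high and 0 EILP-high sites of 19, and the counting interval held 1 at 18 of the 19. The highest ratio there was at chr10:117892913-117893129, with no ALP peak, 7 tags in EILP and 21 in ILCP (2.66, 1.09 to 7.40). In the window of Eomes, a T-box factor of natural killer cells, chr9:118254581-118254869 had the same tags, also with no ALP peak. Around Tbx21, the T-box factor of group 1 innate lymphoid cells, 0 of 28 shared DHS passed 2-fold in either direction.

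Progenitor windows had few ILCP-high sites. Over 14 windows around genes of multipotent and lymphoid-primed progenitors, 15 of 292 shared DHS (5.14%) were EILP-high and 4 (1.37%) ILCP-high. The EILP-high share was at its genome-wide 5.22%, and the ILCP-high share was below its genome-wide 2.39%. The median log2 ratio of -0.10 turned to 0.01 with the fold enrichment. By that measure 6 sites were EILP-high and 1 ILCP-high, beside 861 and 760 of 49404 genome-wide. An ALP peak was present at 14 of the 15 EILP-high sites and 1 of the 4 ILCP-high ones. Of the strong regions in these windows, 10 of 108 in EILP (9.26%, beside 3.89% genome-wide) and 2 of 108 in ILCP (1.85%, beside 2.72%) were in 1 list only.

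The largest drop among them was near Runx1, a RUNX factor of blood stem cells, where chr16:93028938-93029224 had 39 tags in ALP, 32 in EILP and 10 in ILCP, 3.61-fold higher in EILP (1.73 to 8.24). At Bcl11a, a factor of lymphoid-primed progenitors, chr11:24084958-24085281 had 24, 28 and 10 tags (EILP over ILCP 3.16, 1.49 to 7.29). Hhex, a homeobox gene of early progenitors, had a window median of -0.36 (-0.11 by fold enrichment) and its lowest ratio at chr19:37577544-37577848, with 20, 26 and 10 tags (2.93, 1.37 to 6.82). That window also had chr19:37541481-37541879 in ALP and EILP at 26 tags each and absent from the ILCP list. Near Notch1, the receptor that directs T cell fate, chr2:26368741-26369266 had 45 tags in ALP, 25 in EILP and no ILCP peak. The Meis1 window, around a homeobox gene of stem cells, had 2 ILCP-high sites and 1 EILP-high, the highest being chr11:19156001-19156327 with no ALP peak, 7 tags in EILP and 21 in ILCP.

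Windows around genes of other lineages were read as well. Open sites there do not by themselves mark cells that a sort carried along. The site chr8:123112913-123113499 near Irf8, for example, had 56, 56 and 65 tags in ALP, EILP and ILCP. Around 5 myeloid and erythroid genes, 2 of 92 shared DHS were EILP-high (2.17%, beside 5.22% genome-wide) and 0 ILCP-high (beside 2.39%). Strong regions in 1 list only numbered 4 of 47 in EILP (8.51%, beside 3.89%) and 0 of 44 in ILCP (beside 2.72%). Of those 4, 2 lay in the window of Irf8, a factor of dendritic and myeloid cells, and 2 in that of Mpo, which encodes the granule enzyme myeloperoxidase. The strongest, chr8:123316622-123317001 near Irf8, had 22 tags in ALP, 29 in EILP and none in the ILCP list, and overlapped a TCF1 peak. Around 6 loci listed under B cells (Ebf1, Pax5, Igh, Foxo1, Rag1 with Rag2, and Dntt) 9 of 153 (5.88%) were ILCP-high and 3 (1.96%) EILP-high. The genome-wide shares were 2.39% and 5.22%. The counting interval lay above 1 at 3 of those 9 and below 1 at 0 of the 3. An ALP peak was present at 5 of the 9 and at 3 of the 3, beside 44.1% and 91.7% of these classes genome-wide. The Igh window, which spans the immunoglobulin heavy chain genes, had 4 ILCP-high and 0 EILP-high sites of 81, each with an interval that held 1. Of its regions, 61 of 142 in ILCP (43.0%, beside 30.8% genome-wide) and 24 of 105 in EILP (22.9%, beside 28.7%) were in 1 list only. The highest ratio of the B cell list was near Dntt, which encodes the enzyme that adds bases at antigen receptor joints. It was at chr19:41172055-41172453, with no ALP peak, 7 tags in EILP and 28 in ILCP (3.54, 1.51 to 9.61). Around 3 T cell loci 2 of 63 were ILCP-high (3.17%, beside 2.39% genome-wide) and 0 EILP-high (beside 5.22%). Other cells in the sort as a part of these values was not tested.

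Strong regions of a single list were few. Of the 17859 EILP regions with a pileup of at least 20, 695 (3.89%) had no ILCP peak, and of 20262 such ILCP regions 552 (2.72%) had no EILP peak. Without the height threshold 28.7% of EILP regions and 30.8% of ILCP regions were absent from the other list, with a median pileup of 9 on both sides. Most strong one-list regions sat near the threshold: the median pileup was 22 in both sets, 166 and 145 regions stood at exactly 20, and 194 and 207 more stood at 19, just outside. A threshold of 20 scaled to the EILP depth left the EILP-only set at 695 and lowered the ILCP-only set to 221.

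The 2 sets had different shares in the ALP list. An ALP peak was present at 640 of the 695 EILP-only regions (92.1%, 89.8 to 93.9) and at 157 of the 552 ILCP-only regions (28.4%, 24.8 to 32.3). Shared DHS within 0.5 log2 held one at 96.8% for 21 to 30 EILP tags and at 94.3% for 21 to 30 ILCP tags, so the EILP-only share was near that of equally tall shared sites and the ILCP-only share was far below it. At 352 of the EILP-only and 21 of the ILCP-only regions the ALP pileup was itself 20 or more. TCF1 peaks in EILP overlapped 31 (4.46%, 3.16 to 6.26) and 30 (5.43%, 3.83 to 7.65). A peak of the other list lay within 500 bp of 97 and 90 of them.

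**Figure D5:**
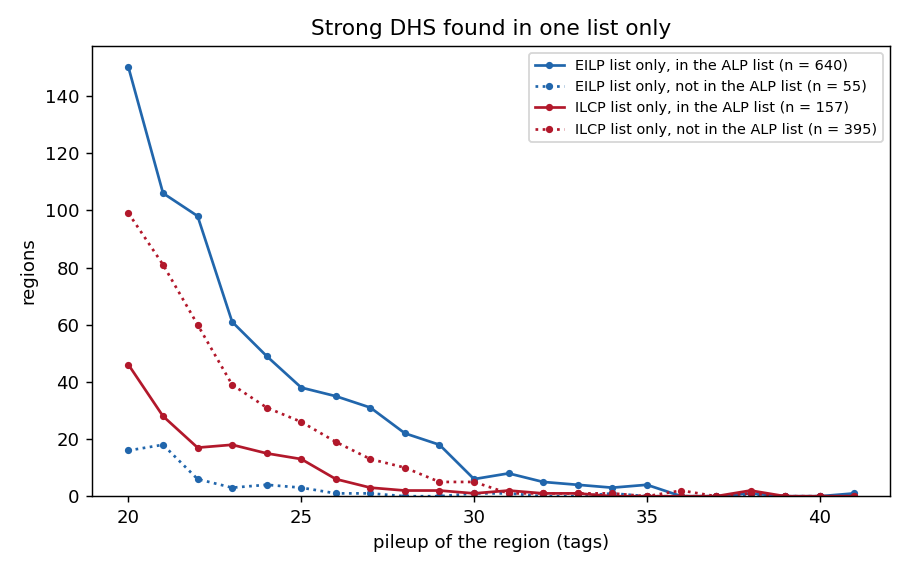
Number of strong regions found in the EILP list only (blue) or the ILCP list only (red) at each pileup in tags (horizontal axis), drawn as solid lines with an ALP peak and dotted lines without. Most EILP-only regions (640 of 695) follow the solid line and most ILCP-only regions (395 of 552) the dotted one, and few of either exceed 30 tags.

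The tallest EILP-only region was chr9:55956060-55956316, with 19 tags in ALP and 41 in EILP. It was followed by chr11:74389413-74389722 with 26 and 38 tags and by chr5:3502567-3502942 with 45 and 35. Of the 10 tallest, 9 had an ALP peak. The tallest ILCP-only regions, each at 38 tags, were chr4:9959266-9959711 with no ALP peak, chr2:32348898-32349258 with 19 tags in ALP and a TCF1 peak in EILP, and chr8:107790811-107791114 with 16 in ALP. Of the 10 tallest, 4 had an ALP peak. A pair at 36 tags, chr7:134167893-134168161 and chr7:134256626-134256949, lay in 1 window of 1 Mb that held 4 strong ILCP-only and 0 strong EILP-only regions. By that count, looked at after the values were seen, the windows at 69 to 70 Mb of chromosome 14 and 58 to 59 Mb of chromosome 9 each had 5 EILP-only and 0 ILCP-only. Also at 5 EILP-only were 80 to 81 Mb of chromosome 10, with 3 ILCP-only, and 3 to 4 Mb of chromosome 11, with 2. At 129 to 130 Mb of chromosome 8 the sets met, with 4 EILP-only and 6 ILCP-only regions. They also met at 57 to 58 Mb of chromosome 17, with 3 and 4. Of 774 windows with any strong one-list region, 161 held both kinds.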

How the data were processed

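Each deposited file is a peak list that the authors called with MACS version 2.1.1.20160309 on the pooled tags of a group, per the file headers, at a q cutoff of 0.05 with 1 tag kept per position. DNase tags were extended to 100 bp fragments with a 50 bp shift and no control, against a 10 kb background, per the file headers. The submitters' processing notes give mm9 as the build, and the aligner is not given in the sources used here. The deposited signal is the pileup at the summit, the deposited ratio is the fold enrichment over local background, and the deposited −log10 q-value was used only for a stricter TCF1 list. Pooling removes the spread between libraries, and absence from a list depends on the cutoff.

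Regions, ratios, shares and intervals were computed with Python 3.11.15, pandas 2.3.3, numpy 2.4.6 and scipy 1.17.1, and tested on simulated lists. The text names the 10 highest and 10 lowest ratios among strong regions, the 10 tallest one-list regions per stage, extreme regions per window, and the 5 highest and 5 lowest 1 Mb windows, of which some are given. The regions, loci and lists were chosen with earlier results of these data known. Alternatives covered scaling, fold enrichment, overlap, thresholds and chromosomes. The 2 libraries with conflicting labels were assigned to no group. Values of 1 effector window are not reported here, though the list's counts include it.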

Additional observations from a re-analysis of the deposited data

How the results depend on the processing

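No paired analysis was possible because each stage is 1 pooled list, so no library could be left out or matched by number. The median log2 ratio was 0.032 with the authors' fold enrichment in place of pileup, which reverses its sign, and kept its sign with pairs sharing 50% of the shorter peak, 1 peak per list and autosomes only. The count of ILCP-high shared DHS was 760 and of EILP-high 861 with the fold enrichment. With strong regions alone the EILP-high count was 1388. Strong one-list regions numbered 2591 (EILP) and 2592 (ILCP) at a pileup of 15 or more, 35 and 19 at 30 or more, and 221 for ILCP at 20 scaled to the EILP depth. The share of regions within 0.5 log2 with a TCF1 peak was 7.15% at a TCF1 q under 0.01, 12.9% in strong regions and 7.54% within the EILP peak's own bounds. That of EILP-high regions was 8.57% in strong regions. These last bounds, and all settings for windows, were chosen after seeing the data. In windows of innate lymphoid factors, ILCP-high and EILP-high sites numbered 7 and 6 with the fold enrichment and 12 and 8 in the middle part of each window, and EILP-high sites 7 among strong regions. In progenitor windows they numbered 1 and 6 with the fold enrichment, ILCP-high sites 1 in the middle part, and EILP-high sites 9 among strong regions. The middle parts and strong regions hold fewer sites. For the fold enrichment the cause was not tested. Among 47 values computed under alternatives for the main results, 25 stayed within 1.5 times the main count or within its counting interval. Low tag numbers limit single regions most: at 5 to 8 tags in the lower list, the named ratios have intervals spanning several fold.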
